A study of Mus musculus with 9 samples.

Results

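A set of 10 genes that report or restrain signalling through the mitogen-activated protein kinase (MAPK) pathway were followed across mouse mammary tumours of 3 models: *Dusp4*, *Dusp5*, *Dusp6*, *Spry2*, *Spry4*, *Etv4*, *Etv5*, *Egr1*, *Fosl1* and *Phlda1*. They were taken by name, as well-known transcriptional outputs and feedback inhibitors of the kinase ERK. The rule uses no measured value, but the set was drawn up with earlier results of these data known. All 10 were found among the 14108 genes listed, and all 10 passed the filter on low counts. RNA was sequenced from 9 tumours, 3 each of HR1, LM1 and LM9. HR1 is a mammary cancer cell line established from a mouse tumour driven by mutant PIK3CA under the ubiquitous CAG promoter, and the study describes it as non-metastatic. LM1 and LM9 are lines grown out of lung metastases that arose after HR1 cells carrying a doxycycline-inducible *piggyBac* transposon system were implanted, so each is a single isolate and carries transposon insertions that HR1 does not. For every tumour 250000 cells were implanted orthotopically in Matrigel and PBS in female NOD/SCID mice 4 to 8 weeks old, an immunodeficient strain, the tumours were taken before they reached 1500 mm3, and GFP+ cells were sorted before RNA extraction. Before implantation the transposon-carrying cells had been selected with G418 and puromycin and treated with doxycycline in culture, and which of these steps the HR1 cells used here went through is not given in the sources used here. The sources do not state that the replicates of a model came from separate mice, so the p-values measure the spread between these samples, which may be partly technical.

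In the MAPK cascade, growth factor receptors activate RAS, and RAF, MEK and ERK then phosphorylate one another in turn. Active ERK reaches the nucleus, where it switches on immediate-early genes such as *Egr1* and the AP-1 subunits, and it also induces its own brakes, the dual-specificity phosphatases (DUSPs) that dephosphorylate MAP kinases and the Sprouty proteins that act upstream. The mRNA levels of these genes are widely used as a readout of pathway output in tumours, although each of them also answers to other signals.

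The tumours were sequenced to between 32393958 and 46681945 counts, and no member had fewer than 32 counts in any tumour. Levels are given as CPM, a count scaled to the size of its library, after TMM scaling, which corrects for differences in RNA composition. The tumour labelled HR1 replicate 1 stood apart. Its correlation with the other HR1 tumours was 0.897 and 0.906 over log2(CPM + 1) values, against 0.971 between HR1 replicates 2 and 3, at least 0.991 within LM1 and at least 0.994 within LM9. It also went against its label. HR1 is the *Nfib*-low model of the study, yet this tumour held 1343 CPM of *Nfib*, against 23.9 and 18.3 CPM in HR1 replicates 2 and 3 and 421 to 791 CPM in the 6 LM tumours. For the 10 genes the comparisons with HR1 are therefore given with and without it, and for other genes the counts and the calls that changed. Below it is called the tumour labelled HR1 replicate 1. *Dcn*, which encodes the matrix proteoglycan decorin, stood at 17610 CPM in it, against 329 to 432 CPM in the other HR1 tumours.

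Genes used as cell type markers moved with the models as well. The summed level of 10 fibroblast markers was 23420 to 35250 CPM in HR1, 10400 to 13830 CPM in LM1 and 8976 to 10550 CPM in LM9, and 9 of the 10 were lower in LM1 and LM9 together against HR1, the comparison used for the marker counts unless another is named (7 without the tumour labelled HR1 replicate 1). The 12 leukocyte markers summed to 243 to 1068 CPM in HR1 and 205 to 253 CPM in the LM tumours, with 9 lower (9 without that tumour). Of the 9 endothelial markers listed, *Kdr* and *Cdh5* were higher and 6 were lower, with and without that tumour, and their sum of 11.6 to 39.9 CPM in HR1 compared with 167 to 298 CPM in the LM tumours. In the LM tumours *Cdh5* was at 136 to 254 CPM and *Kdr* at 22.3 to 37.3 CPM, whereas *Pecam1* did not pass 6.42 CPM in any of the 9. Of the 10 mammary epithelial markers 6 are among the genes listed, and they summed to 7.55 to 121 CPM in HR1, 158 to 181 CPM in LM1 and 14.5 to 18.0 CPM in LM9. The basal keratin gene *Krt14* made up most of this in every tumour but the one labelled HR1 replicate 1, where it was at 1.56 CPM and *Epcam* at 4.49 CPM. It was at 31.4 and 109 CPM in HR1 replicates 2 and 3, 152 to 175 CPM in LM1 and 12.2 to 15.4 CPM in LM9. *Epcam* and *Cdh1*, which define epithelial cells in general, did not pass 4.49 and 1.20 CPM. With and without the tumour labelled HR1 replicate 1, 2 of the 6 were lower in LM1 and LM9 together and none was higher. The single models differed from this. Each had 1 of the 6 lower and none higher with all 9 tumours, but without that tumour LM1 had 3 higher (*Krt14*, *Krt18* and *Krt19*) and 2 lower, and LM9 had 2 lower, one of them *Krt14*. The log2 fold change of *Krt14* against HR1 was then 1.26 in LM1 and -2.34 in LM9. The RNA was pooled from sorted GFP+ cells, so it cannot be told which cells a marker transcript came from. Fewer cells of a type and less RNA per cell cannot be told apart either. The part of these markers in the results that follow was not tested.

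Across the 10 genes, the LM tumours were higher for some and not for others. In LM1 and LM9 together against HR1, 5 of 10 rose: *Egr1*, *Dusp5*, *Spry2*, *Dusp4* and *Phlda1*. None fell. The call is an adjusted p under 0.05 in the quasi-likelihood F-test of edgeR, adjusted by the Benjamini-Hochberg method over all 14086 genes tested ("edgeR adjusted p" from here on), in which the mean of the LM1 and LM9 effects is set against HR1. The background was high, as 43.6% of all tested genes were called in this comparison and 19.9% were called higher. The median log2 fold change of the 10 genes was 1.35 (1.10 without the tumour labelled HR1 replicate 1), against -0.05 for all tested genes. In LM1 against HR1, 4 of 10 were called, all higher, where 35.5% of all genes were called and 16.7% were higher. In LM9 against HR1, 5 of 10 were called, all higher, where 42.3% of all genes were called and 20.4% were higher. Both of these comparisons use the same HR1 tumours. Without the tumour labelled HR1 replicate 1, 9 of 10 were called higher for LM1 and LM9 together (all genes, 56%), 7 of 10 for LM1 (52.8%) and 9 of 10 for LM9 (55.7%), so the count of members rose together with that of all genes. For 6 of the 10 genes the lowest LM tumour was above the highest HR1 tumour, a pattern shown by 15.6% of all genes, and for 8 of 10 it was above HR1 replicates 2 and 3, which held for 23.3% of all genes.

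**Figure D1:**
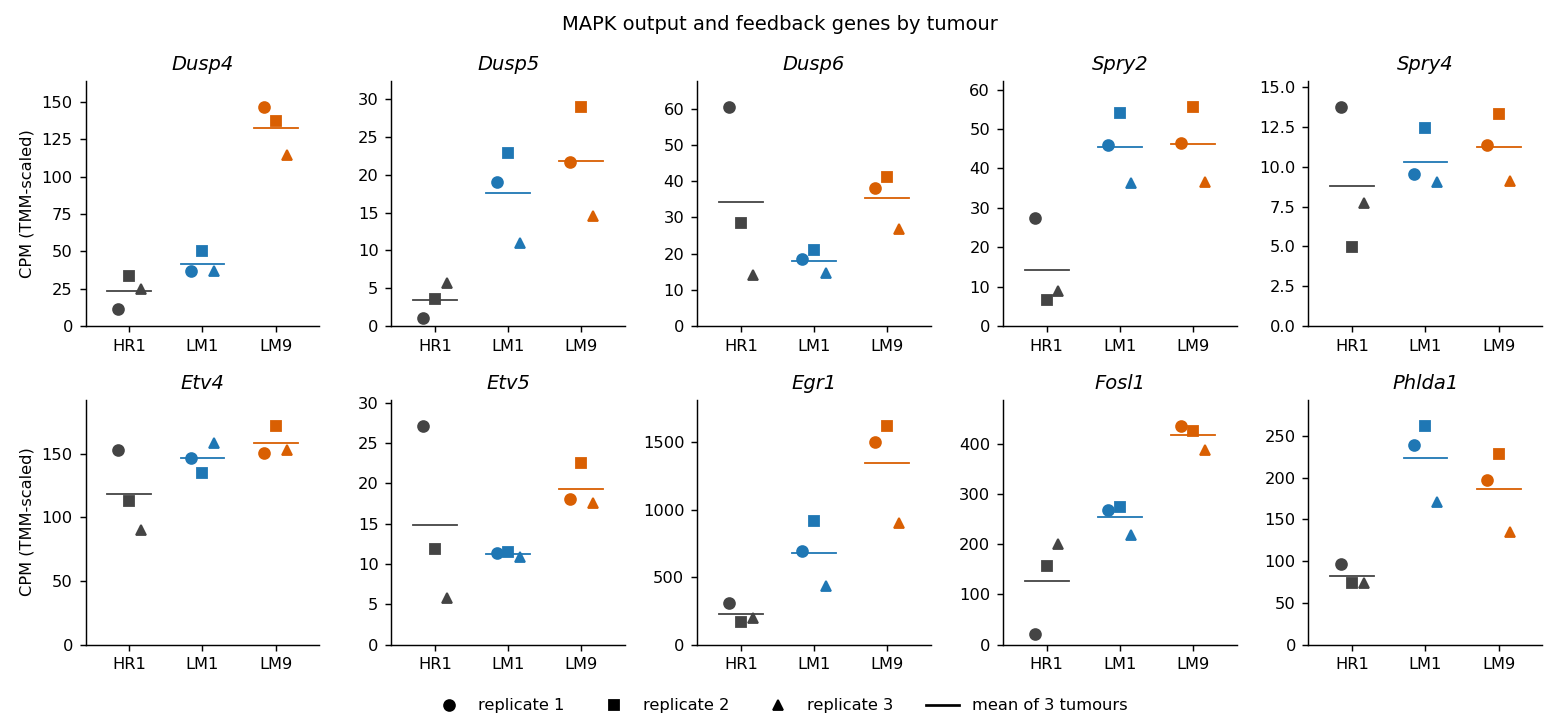
TMM-scaled CPM of the 10 MAPK output and feedback genes (vertical axes, linear, from 0) in the 3 tumours of each model (horizontal axis); points are single tumours, their shape gives the replicate number and lines are means. *Egr1* was at 164 to 310 CPM in HR1 and 436 to 1621 CPM in LM tumours, whereas for *Dusp6*, *Spry4*, *Etv4* and *Etv5* the HR1 and LM tumours overlapped.

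**Figure D2:**
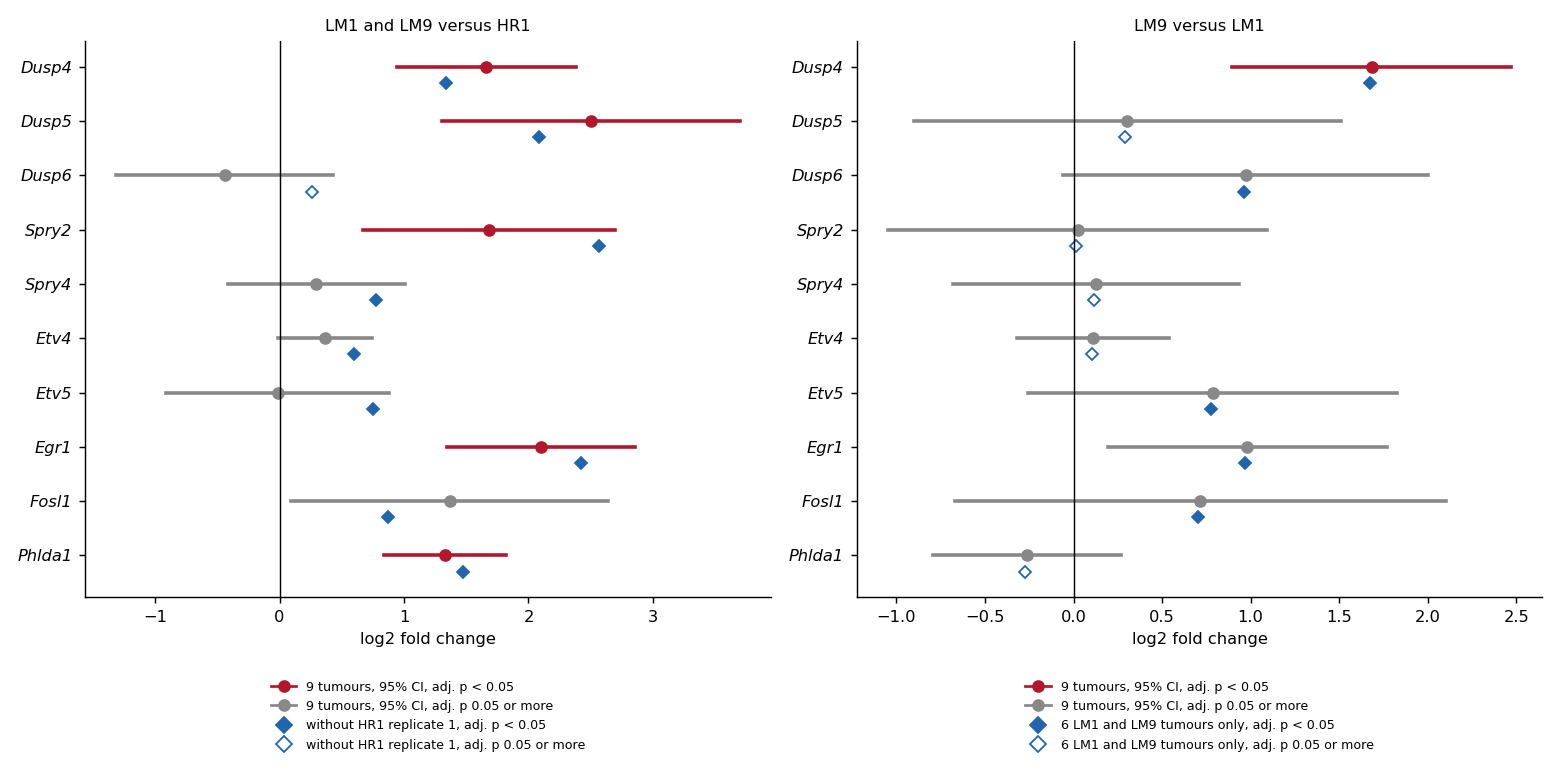
Log2 fold changes (horizontal axes) of the 10 genes for LM1 and LM9 versus HR1 (left) and LM9 versus LM1 (right); circles and bars are edgeR estimates with 95% confidence intervals from all 9 tumours, and diamonds are estimates without the tumour labelled HR1 replicate 1 (left) or from the 6 LM tumours alone (right). On the left 5 genes are called from all 9 tumours and 9 without that tumour. On the right *Dusp4* is called from all 9 tumours and 5 genes from the 6 LM tumours.

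Of the 3 phosphatases, *Dusp4* and *Dusp5* rose in the LM tumours. *Dusp4* encodes a nuclear phosphatase that acts on ERK, JNK and p38 kinases, and lies on chromosome 8 (GRCm38 34807297 to 34819894, plus strand). It was at 11.3, 33.7 and 25.0 CPM in HR1 replicates 1 to 3, at 36.7, 50.3 and 36.9 CPM in LM1, and at 146, 138 and 114 CPM in LM9. The 3 models did not overlap, although the highest HR1 tumour came close to the lowest LM1 tumour. In LM9 *Dusp4* was 5.67-fold above HR1 (log2 fold change 2.50 ± 0.36 s.e., edgeR adjusted p = 0.00109), and the log2 value was 2.18 without the tumour labelled HR1 replicate 1. In LM1 the difference of 0.82 ± 0.34 on the log2 scale was not called (edgeR adjusted p = 0.0913), and it was not called without the tumour labelled HR1 replicate 1 either (0.50, edgeR adjusted p = 0.0525), but it was called without HR1 replicate 2 (1.18, edgeR adjusted p = 0.0286). For both LM models together the log2 fold change was 1.66 ± 0.32 (edgeR adjusted p = 0.00358), and 1.34 without that tumour.

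*Dusp5* encodes a nuclear phosphatase specific for ERK and lies on chromosome 19 (GRCm38 53529109 to 53542431, plus strand). Its levels were low in HR1, at 1.06, 3.51 and 5.74 CPM. They reached 19.1, 22.9 and 10.9 CPM in LM1 and 21.7, 28.9 and 14.6 CPM in LM9. LM1 and LM9 tumours overlapped each other and were all above HR1. *Dusp5* had the largest fold difference of the 10 genes in LM1 and LM9 against HR1, 5.67-fold (log2 fold change 2.50 ± 0.53 s.e., edgeR adjusted p = 0.00561), and without the tumour labelled HR1 replicate 1 the log2 value was 2.09. There the values of *Spry2* and *Egr1* were larger. In the gene annotation 547 bases of its exons overlap AC137853.2 on the opposite strand.

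*Dusp6*, a cytoplasmic ERK phosphatase that is often used as a marker of ERK activity, behaved differently. It lies on chromosome 10 (GRCm38 99263231 to 99267489, plus strand). HR1 tumours held 60.5, 28.4 and 14.0 CPM, the highest being the tumour labelled HR1 replicate 1. LM1 held 18.5, 20.9 and 14.7 CPM and LM9 38.2, 41.3 and 26.8 CPM, so both lay within the HR1 range. The log2 fold change in LM1 and LM9 against HR1 was -0.44 ± 0.38 s.e. (95% confidence interval -1.31 to 0.43, edgeR adjusted p = 0.381), and without the tumour labelled HR1 replicate 1 it was 0.26 (edgeR adjusted p = 0.443). In LM1 against HR1 the value was -0.93 ± 0.45 (edgeR adjusted p = 0.142), and among the alternatives run it passed the threshold only when HR1 replicate 3 was left out (-1.30, edgeR adjusted p = 0.0177).

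RefSeq sequence before the transcription start (GRCm38.p6) was at hand for 4 of the 10 genes, *Dusp5*, *Dusp6*, *Spry2* and *Etv5*. The stretches of *Dusp5* and *Dusp6* are shown because the one phosphatase gene rose in both LM models and the other did not, and that of *Spry2* because it rose with *Dusp5*. The 250 bases before the RefSeq start were searched on both strands for the AP-1 motif TGANTCA, the cyclic AMP response element TGACGTCA, the ETS motif CCGGAA, the NFI motif TTGGCA and the CArG box, the core of the serum response element. Capitals mark matches. For *Dusp5* the print stops where the gene annotation used for the exon lengths begins.
*Dusp5*, chr19:53528895-53529108, plus strand: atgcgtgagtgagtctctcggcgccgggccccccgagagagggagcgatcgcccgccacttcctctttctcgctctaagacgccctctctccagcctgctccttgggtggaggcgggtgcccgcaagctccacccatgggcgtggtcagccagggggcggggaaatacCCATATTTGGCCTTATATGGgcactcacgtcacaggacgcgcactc
*Dusp6*, chr10:99262981-99263230, plus strand: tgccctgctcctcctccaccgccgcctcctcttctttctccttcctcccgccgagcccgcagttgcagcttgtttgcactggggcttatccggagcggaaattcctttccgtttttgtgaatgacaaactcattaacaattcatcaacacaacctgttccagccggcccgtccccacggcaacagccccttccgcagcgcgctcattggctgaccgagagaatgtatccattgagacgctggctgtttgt
*Spry2*, chr14:105896820-105897069, minus strand: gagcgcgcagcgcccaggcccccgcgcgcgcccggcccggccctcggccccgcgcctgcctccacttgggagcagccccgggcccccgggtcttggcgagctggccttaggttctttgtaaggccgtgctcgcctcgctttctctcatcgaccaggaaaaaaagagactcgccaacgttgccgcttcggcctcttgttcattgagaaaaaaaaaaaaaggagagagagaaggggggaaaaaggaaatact
*Dusp5* held 2 CArG boxes side by side, centred 77 and 67 bases before the RefSeq start, and none of the other motifs. The windows of *Dusp6*, *Spry2* and *Etv5* (at both of its RefSeq starts) held no match to any of the 5. Of 32851 promoter windows of the same length, 1.47% held a CArG box, 6.75% the AP-1 motif, 1.55% the cyclic AMP response element, 12% the ETS motif and 12.3% the NFI motif. A match describes the letters in the window and is not a binding site.

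Of the Sprouty genes, *Spry2* rose in the LM tumours from all 9 tumours and *Spry4* was not called. *Spry2* encodes an inhibitor that acts between receptor tyrosine kinases and RAF, and lies on chromosome 14 (GRCm38 105891947 to 105896819, minus strand, just downstream of the stretch printed above). HR1 tumours held 27.3, 6.55 and 9.01 CPM. The values were 46.0, 54.1 and 36.4 CPM in LM1 and 46.5, 55.5 and 36.6 CPM in LM9. The LM models were almost superimposed, and all 6 tumours lay above HR1, the tumour labelled HR1 replicate 1 being the nearest. In LM1 and LM9 against HR1 *Spry2* was 3.21-fold higher (log2 fold change 1.68 ± 0.45 s.e., edgeR adjusted p = 0.0155), and without that tumour the log2 value rose to 2.56 (edgeR adjusted p = 2.1e-05).

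*Spry4*, a second Sprouty inhibitor that is commonly induced by ERK, was low in every model. It was at 13.7, 4.93 and 7.69 CPM in HR1, 9.52, 12.4 and 9.02 CPM in LM1 and 11.3, 13.3 and 9.09 CPM in LM9. The tumour labelled HR1 replicate 1 was the highest of all 9, and the other HR1 tumours were the lowest. The log2 fold change in LM1 and LM9 against HR1 was 0.30 ± 0.31 s.e. (95% confidence interval -0.41 to 1.00, edgeR adjusted p = 0.47), and 0.78 without that tumour (edgeR adjusted p = 0.0194).

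*Etv4* and *Etv5* encode ETS transcription factors of the PEA3 family, which are induced by and phosphorylated by ERK. *Etv4* lies on chromosome 11 (GRCm38 101769742 to 101785371, minus strand) and *Etv5* on chromosome 16 (GRCm38 22381309 to 22439719, minus strand). *Etv4* stood at 153, 113 and 89.9 CPM in HR1, at 146, 135 and 159 CPM in LM1 and at 150, 172 and 153 CPM in LM9. All 6 LM tumours were above HR1 replicates 2 and 3, and the tumour labelled HR1 replicate 1 lay among them. Its log2 fold change was 0.37 ± 0.17 s.e. in LM1 and LM9 against HR1 (edgeR adjusted p = 0.106, or 0.0461 with scaling to library size only), and 0.60 without that tumour (edgeR adjusted p = 0.00293). *Etv5* was at 27.2, 11.8 and 5.74 CPM in HR1, at 11.4, 11.5 and 10.9 CPM in LM1 and at 18.0, 22.6 and 17.5 CPM in LM9. The HR1 tumours spanned both LM models, and the 3 LM9 tumours lay above the 3 LM1 tumours. The log2 fold change of *Etv5* against HR1 was -0.01 ± 0.39 (edgeR adjusted p = 0.983). Without the tumour labelled HR1 replicate 1 it was 0.75 (edgeR adjusted p = 0.0261), which came mainly from LM9 (1.14, edgeR adjusted p = 0.00594) and less from LM1 (0.36, edgeR adjusted p = 0.279).

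*Egr1*, a zinc finger immediate-early factor transcribed within minutes of ERK activation, was the member with the highest mean CPM in each model. In HR1 replicate 3 *Fosl1* was higher, at 201 CPM. Without the tumour labelled HR1 replicate 1 the HR1 means of *Egr1* and *Fosl1* were both 179 CPM. It lies on chromosome 18 (GRCm38 34859823 to 34864984, plus strand), as does *Spry4* (38586247 to 38601415, minus strand). HR1 tumours held 310, 164 and 194 CPM, LM1 tumours 690, 912 and 436 CPM and LM9 tumours 1502, 1621 and 903 CPM. All LM tumours were above all HR1 tumours, and the ranges of LM1 and LM9 met at 912 and 903 CPM. Against HR1, *Egr1* was 3.05-fold higher in LM1 (log2 fold change 1.61 ± 0.35 s.e., edgeR adjusted p = 0.0085) and 6.03-fold higher in LM9 (2.59 ± 0.37, edgeR adjusted p = 0.001). For both together the log2 value was 2.10 ± 0.33 (edgeR adjusted p = 0.00142), and 2.42 without the tumour labelled HR1 replicate 1, when the values were 1.93 in LM1 and 2.91 in LM9.

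*Fosl1* encodes FRA-1, an AP-1 subunit that is stabilised by ERK phosphorylation and is known from invasive mammary cancer cells. It lies on chromosome 19 (GRCm38 5447547 to 5455946, plus strand). HR1 tumours held 20.9, 158 and 201 CPM, the lowest being the tumour labelled HR1 replicate 1. LM1 tumours held 268, 275 and 219 CPM and LM9 tumours 437, 428 and 388 CPM, so the 3 models did not overlap. The log2 fold change in LM1 and LM9 against HR1 was 1.37 ± 0.56 s.e. and was not called (edgeR adjusted p = 0.0786), with a 9.59-fold range within HR1. From the same 9 tumours DESeq2 (adjusted p = 0.0176) and limma-voom (adjusted p = 0.033) called it. Without the tumour labelled HR1 replicate 1 it was smaller and was called (0.87, edgeR adjusted p = 0.000607). Exons of *Fosl1* share 1163 bases with *Ccdc85b* on the opposite strand. Whether strand was used in counting is not given in the sources used here, and *Ccdc85b* itself stood at 33.5 to 57.4 CPM in the 9 tumours.

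*Phlda1* encodes a pleckstrin homology-like protein that is induced by ERK signalling. It lies on chromosome 10 (GRCm38 111506286 to 111508645, plus strand), and 727 bases of its exon overlap Gm28592 on the opposite strand. It was at 96.5, 73.8 and 74.3 CPM in HR1, at 239, 262 and 171 CPM in LM1 and at 197, 229 and 135 CPM in LM9. Every LM tumour was above every HR1 tumour, and LM1 and LM9 overlapped. *Phlda1* rose 2.51-fold in LM1 and LM9 against HR1 (log2 fold change 1.33 ± 0.22 s.e., edgeR adjusted p = 0.00162), with 1.47 without the tumour labelled HR1 replicate 1. It had the narrowest HR1 spread of the 10 genes, a coefficient of variation of 15.9%, compared with 79.4% for *Spry2*. The value for *Spry2* was 22.3% without the tumour labelled HR1 replicate 1, and that of *Phlda1*, 0.419% over 2 tumours, was still the lowest.

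In LM9 against LM1 the question is how the lung metastasis-derived models differ from each other, and no HR1 tumour is compared. With all 9 tumours sharing one estimate of the spread, only *Dusp4* of the 10 was called (1 of 10), while 22% of all genes were called and 11.5% were higher. *Dusp4* was 3.21-fold higher in LM9 (log2 fold change 1.68 ± 0.35 s.e., edgeR adjusted p = 0.0118), a call that was lost without LM1 replicate 1 (0.0589) or LM1 replicate 3 (0.056). *Egr1* missed the threshold at 0.98 ± 0.35 (edgeR adjusted p = 0.0731) and passed it with DESeq2 (adjusted p = 0.0298). When the tumour labelled HR1 replicate 1 was left out, 5 of 10 were called, all higher, with 45.5% of all genes called. When the fit held only the 6 LM tumours, 5 of 10 were again called against 56.3% of all genes, so the count of members moved with the background. In that fit the log2 fold changes were 1.67 for *Dusp4* (edgeR adjusted p = 4e-06), 0.71 for *Fosl1* (0.00039), 0.78 for *Etv5* (0.000636), 0.96 for *Dusp6* (0.000984) and 0.97 for *Egr1* (0.022). For 4 of 10 genes every LM9 tumour was above every LM1 tumour, namely *Dusp4*, *Dusp6*, *Etv5* and *Fosl1*, and 31.9% of all genes showed this. *Spry2* differed by 0.02 ± 0.47, *Spry4* by 0.12 ± 0.36, *Etv4* by 0.11 ± 0.19, *Dusp5* by 0.30 ± 0.53 and *Phlda1* by -0.26 ± 0.23 on the log2 scale. The 95% confidence intervals of *Spry2* (-1.05 to 1.09) and *Dusp5* (-0.90 to 1.51) left room for differences of about the size seen for *Dusp6*.

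Per kilobase of exon, the levels of the 10 genes can be ordered within a model. In HR1 the mean was highest for *Fosl1* at 62.2 ± 46.2 CPM per kb (s.d., n = 3), followed by *Egr1* at 49.7 ± 17.2, *Etv4* at 38.1 ± 10.2 and *Phlda1* at 37.0 ± 5.88 CPM per kb. These 4 did not separate beyond their spread with all 3 tumours, but *Fosl1* was at 10.3 CPM per kb in the tumour labelled HR1 replicate 1 and at 77.6 and 98.7 CPM per kb in HR1 replicates 2 and 3. In those tumours it lay above the other 3 genes, whose means were 39.9 (*Egr1*), 33.6 (*Phlda1*) and 32.6 CPM per kb (*Etv4*). *Dusp6* (11.0 ± 7.59), *Dusp4* (8.53 ± 4.12) and *Spry2* (6.85 ± 5.44 CPM per kb) came next and overlapped too. Their order changed without the tumour labelled HR1 replicate 1, with *Dusp4* at 10.7, *Dusp6* at 6.77 and *Spry2* at 3.73 CPM per kb. *Etv5*, *Spry4* and *Dusp5* were lowest, at 3.63 ± 2.69, 1.85 ± 0.947 and 1.39 ± 0.945 CPM per kb, and at 2.14, 1.33 and 1.87 CPM per kb without that tumour. In LM1 the order began with *Egr1* at 152 ± 53.1, *Fosl1* at 125 ± 15.0 and *Phlda1* at 102 ± 21.4 CPM per kb, whose tumours overlapped. In LM9 *Egr1* led at 299 ± 85.8, *Fosl1* followed at 206 ± 12.7 and *Phlda1* stood at 84.7 ± 21.6 CPM per kb. The LM9 tumours of *Egr1* and *Fosl1* overlapped, at 201 to 362 and 191 to 215 CPM per kb. *Etv4* and *Dusp4* were next in LM9, at 51.0 ± 3.77 and 48.4 ± 6.08 CPM per kb, and did not separate, whereas in LM1 *Etv4* at 47.2 ± 3.81 CPM per kb was well above *Dusp4* at 15.1 ± 2.85 CPM per kb. *Dusp5*, *Etv5* and *Spry4* were the 3 lowest per kb in LM9 as in HR1, whereas in LM1 *Dusp6* at 5.75 ± 1.01 was below *Dusp5* at 7.13 ± 2.46 CPM per kb with overlapping tumours. The LM9 means of these 3 were 8.80 ± 2.89, 4.72 ± 0.675 and 2.37 ± 0.443 CPM per kb.

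Within models the tumours were not spread evenly. In LM9 replicate 3 was the lowest of the 3 tumours for 9 of the 10 genes, and in LM1 replicate 3 was the lowest for 8 of 10. Over all tested genes these tumours were the lowest of their model for 30.3% and 35.2%. The 19 other AP-1 and immediate-early genes followed the same order without exception, as all 19 were lowest in replicate 3 of LM1 and all 19 in replicate 3 of LM9. Their median lay 0.31 (LM1) and 0.43 (LM9) below the model mean on the log2(CPM + 1) scale, and the medians of the 10 members lay 0.24 and 0.29 below it. Of 10 heat-shock genes, 8 were lowest in LM1 replicate 3 and 10 in LM9 replicate 3. In HR1 the tumour labelled HR1 replicate 1 was the highest for 7 of the 10 members and the lowest for the other 3, *Dusp4*, *Dusp5* and *Fosl1*. Over all tested genes it was the lowest of its model for 42.5%, and the share for which it was the highest was not computed. The labels tie no date or batch to a replicate number, and what the third replicates share was not tested.

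**Figure D3:**
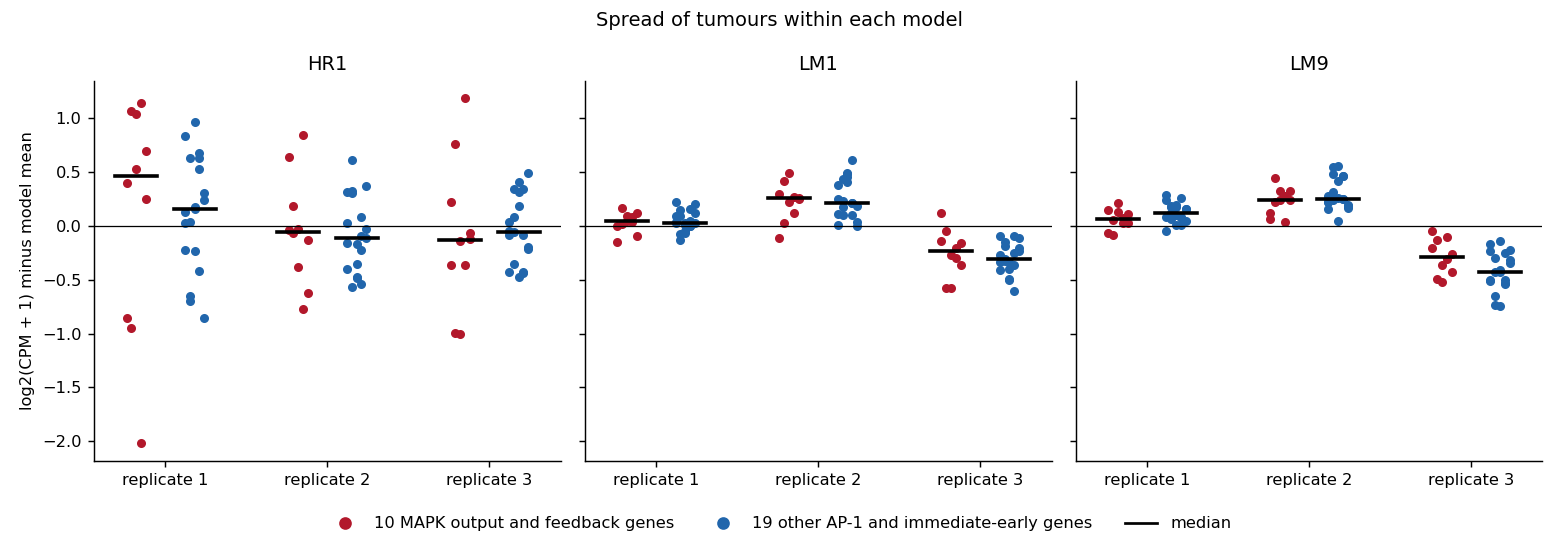
Deviation of each tumour from its model's mean on the log2(CPM + 1) scale (vertical axis) by replicate (horizontal axis) for the 10 MAPK output and feedback genes (red) and 19 other AP-1 and immediate-early genes (blue); each point is a gene and black lines are medians. All 19 blue points lie below 0 for replicate 3 of LM1 and of LM9, while HR1 shows a wider spread with no such order.

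The wider pathway was described with lists of other genes of each kind. Among the 19 other AP-1 and immediate-early genes, 16 rose in LM1 and LM9 against HR1 and none fell, or 84.2% called against 43.6% of all tested genes, with a median log2 fold change of 1.18 against -0.05 for all genes. Those with the smallest p were *Ier3* (2.13 ± 0.20 s.e., edgeR adjusted p = 0.000129), the orphan nuclear receptor gene *Nr4a1* (3.87 ± 0.40, 0.000219) and *Junb* (1.73 ± 0.19, 0.000256). *Nr4a1* was at 19.1 to 33.6 CPM in HR1 and 230 to 665 CPM in the LM tumours. The AP-1 genes *Fos* (1.48 ± 0.34, edgeR adjusted p = 0.00838), *Jun* (0.91 ± 0.28, 0.0299) and *Atf3* (1.18 ± 0.35, 0.0251) rose as well. In LM1 against HR1, *Jun* (0.26, edgeR adjusted p = 0.545) and *Atf3* (0.19, 0.725) were not called. In LM9 against HR1 both were (1.56, edgeR adjusted p = 0.00572, and 2.16, 0.00353). Of the 19 genes, 11 were higher and 1 lower in LM1, and 16 were higher and none lower in LM9. *Jund*, *Srf* and *Btg2* were not called, although *Btg2* was without the tumour labelled HR1 replicate 1 (1.08, edgeR adjusted p = 0.00174). Between the LM models 9 of the 19 were higher in LM9 and none lower, or 47.4% called where 22% of all genes were, led by *Maff* (1.25 ± 0.15, edgeR adjusted p = 0.00142), *Atf3* (1.97 ± 0.40, 0.011) and the anti-proliferative gene *Btg2* (1.41 ± 0.32, 0.0165). *Fos* (0.29 ± 0.37) and *Junb* (-0.10 ± 0.20) were not called there. Without the tumour labelled HR1 replicate 1 the counts were 17 higher and none lower against HR1, and 11 higher and none lower between LM models, or 57.9% called where 45.5% of all genes were.

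Immediate-early genes can also be switched on while tissue is taken apart, so genes known to respond to dissociation were listed alongside. The AP-1 list holds 8 of these 18 genes too. All 8 rose in LM1 and LM9 together against HR1, although *Jun* and *Atf3* were called in LM9 and not in LM1. Of the 10 heat-shock genes that are not, 1 rose (*Hsph1*, 1.07 ± 0.22 s.e., edgeR adjusted p = 0.00526), 1 fell (*Hspa1a*, -3.37 ± 0.84, 0.0119) and 8 were not called, with a median of 0.47, where 43.6% of all tested genes were called. When the tumour labelled HR1 replicate 1 was left out, 4 of these 10 were higher (*Hspb1* 1.63, *Hsph1* 0.86, *Bag3* 0.65 and *Dnaja1* 0.52) and *Hspa1a* was lower, a share of 50% where 56% of all genes were called. Between LM9 and LM1 none of the 10 was called, and 3 of 10 were lower in LM9 without that tumour, where 22% and 45.5% of all genes were called. The summed level of the 18 genes was 2641 to 3669 CPM in HR1, 5106 to 7369 CPM in LM1 and 6042 to 10910 CPM in LM9. This sum includes the 8 genes shared with the AP-1 list, so it is not a separate measure of dissociation. In LM9 replicate 2, with the sum of 10910 CPM, *Jun* held 2758 CPM, *Fosb* 1519 CPM and *Fos* 1494 CPM. The tumours were processed to sorted cells before RNA extraction, and the part of this step in the differences between models was not tested.

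Other negative regulators did not move as one group. Of 9 other DUSP genes 6 rose and 1 fell (*Dusp14*), or 77.8% called against 43.6% of all tested genes, with a median of 0.79. *Dusp9*, an ERK phosphatase, went from 0.299 to 1.06 CPM in HR1 to at least 9.24 CPM in each LM1 tumour and 4.10 to 5.68 CPM in LM9 (log2 fold change 3.25 ± 0.40 s.e., edgeR adjusted p = 0.000485). *Dusp7* (1.54 ± 0.24, 0.00143), which acts on ERK, and *Dusp8* (2.05 ± 0.40, 0.00365), which acts on JNK and p38, also rose. Between LM models *Dusp10* (1.50 ± 0.22, edgeR adjusted p = 0.00298) and *Dusp1* (1.02 ± 0.26, 0.0263) were higher in LM9, and *Dusp2* was lower (-2.05 ± 0.52, 0.0238). Among 14 other Sprouty, Spred and RAS-restraining genes 2 rose and 3 fell, and the median was 0.06. The share called, 35.7%, was below the 43.6% of all tested genes. *Errfi1*, a feedback inhibitor of the EGF receptor, rose (1.57 ± 0.23, edgeR adjusted p = 0.000939), while *Lztr1*, an adaptor for degradation of RAS proteins, fell (-1.16 ± 0.10, 8.1e-05), as did the RAS GTPase activator gene *Rasa3* (-1.07 ± 0.33, 0.0298). *Lztr1* was the most even of these, at 135 to 147 CPM in HR1 and 56.2 to 66.9 CPM in the LM tumours. *Spred3* (1.20 ± 0.27, edgeR adjusted p = 0.016), *Rasa2* (1.33 ± 0.34, 0.025) and *Errfi1* (0.91 ± 0.24, 0.0305) were higher in LM9 than in LM1, the 3 of 14 called there. That share of 21.4% was near the 22% of all genes called, while 33.3% of the other DUSPs were called. Without the tumour labelled HR1 replicate 1, 4 of the 14 were higher and 1 lower in LM9 (35.7% called). Of the other DUSPs 3 were then higher and 2 lower (55.6%), where 45.5% of all genes were called.

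Of 10 other ETS factor genes 6 rose in LM1 and LM9 against HR1 and 1 fell (70% called against 43.6% of all tested genes), with a median of 0.48. *Etv6* (0.62 ± 0.11 s.e., edgeR adjusted p = 0.00287), *Elk3* (0.65 ± 0.12, 0.00344) and *Ets1* (0.82 ± 0.16, 0.00357) had the smallest p among them, and *Ets2* was the one that fell (-0.61 ± 0.14, 0.00776). In the single models against HR1, *Elk3* was not called in LM1 (0.33, edgeR adjusted p = 0.0925) and *Ets2* was not called in LM9 (-0.26, 0.229). In LM9 against LM1 *Elk3* (0.63 ± 0.14, edgeR adjusted p = 0.0147) and *Ets2* (0.71 ± 0.16, 0.018) were higher, and *Etv1* was called lower at levels that did not pass 0.408 CPM in any tumour, so that 30% of the list was called against 22% of all genes. Of 13 other genes known as ERK outputs, 5 were higher and 1 lower against HR1, with a median of 0.41 (0.08 without the tumour labelled HR1 replicate 1). The share called was 46.2%, near the 43.6% of all tested genes. *Ccnd1*, encoding cyclin D1, rose from 329 to 419 CPM in HR1 to 931 to 1060 CPM in the LM tumours (1.42 ± 0.13, edgeR adjusted p = 0.000111). *Tgfa*, encoding a ligand of the EGF receptor, was at most 0.045 CPM in HR1 and 0.778 to 2.98 CPM in the LM tumours. *Phlda3*, a relative of *Phlda1*, fell in LM1 and LM9 together (-1.20 ± 0.15, edgeR adjusted p = 0.00044). The fall was called in LM9 (-2.21, edgeR adjusted p = 8.9e-05) and not in LM1 (-0.19, 0.426). *Phlda3* was lower in LM9 than in LM1 (-2.02 ± 0.18, 0.000491). *Phlda2* was lower in LM9 than in LM1 (-2.54 ± 0.51, edgeR adjusted p = 0.0107), and the EGF receptor ligand gene *Hbegf* was higher (1.62 ± 0.41, 0.0239). In that comparison 30.8% of these 13 genes were called, against 22% of all genes. Without the tumour labelled HR1 replicate 1, 5 of them were higher and 4 lower in LM9, or 69.2% called where 45.5% of all genes were. The ETS factors then had 4 higher and 2 lower, or 60% called.

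The transcripts of the cascade itself gave no common direction. Of 24 genes from adaptor to kinase, 5 rose and 7 fell in LM1 and LM9 against HR1, 50% of the list against the background of 43.6%, with a median of -0.13. *Map2k1*, encoding MEK1, rose (0.66 ± 0.13 s.e., edgeR adjusted p = 0.00358), while *Map2k2*, encoding MEK2 (-0.69 ± 0.14, 0.00431), and *Mapk3*, encoding ERK1 (-0.79 ± 0.25, 0.0341), fell. The adaptor gene *Shc1* (-0.81 ± 0.15, edgeR adjusted p = 0.00257) and *Rps6ka1*, which encodes the ERK-dependent kinase RSK1 (-1.69 ± 0.32, 0.00334), fell as well. Between the LM models 2 were higher and 3 lower in LM9, a share of 20.8% that was near the 22% of all genes called. Those with the smallest p were *Hras* (-0.87 ± 0.17, edgeR adjusted p = 0.00861), *Sos2* (0.77 ± 0.18, 0.0175) and *Rps6ka1* (-1.62 ± 0.39, 0.0213). The 2 higher and 3 lower became 8 and 5 without the tumour labelled HR1 replicate 1, or 54.2% called where 45.5% of all genes were. Without the tumour labelled HR1 replicate 1 the cascade counts against HR1 were 4 higher and 7 lower, those of the other DUSPs 7 and 1, of the Sprouty, Spred and RAS-restraining genes 3 and 2, of the ETS factors 7 and 2, of the ERK outputs 5 and 1 and of the 18 dissociation and heat-shock genes 12 and 1, where 56% of all genes were called. The 11 of 24 cascade genes lay below that share. Of the list genes named above as rising or falling against HR1, *Mapk3* lost its call without that tumour (-0.34, edgeR adjusted p = 0.101). *Map2k2*, *Mapk3*, *Dusp14*, *Hsph1*, *Hspa1a*, *Hspb1*, *Bag3* and *Dnaja1* are named here after their values were seen.

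**Figure D4:**
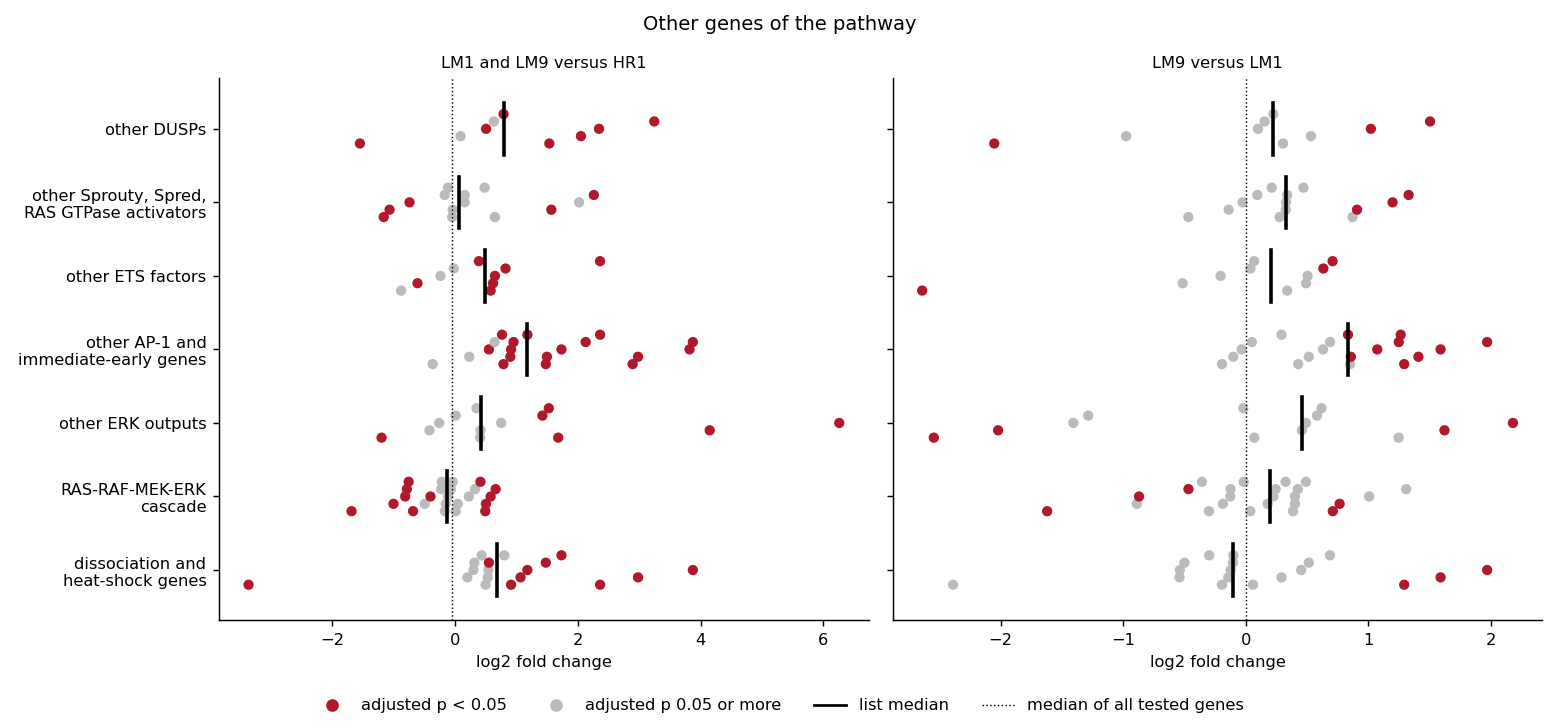
Log2 fold changes (horizontal axes) of the genes of 7 further lists (rows) for LM1 and LM9 versus HR1 (left) and LM9 versus LM1 (right), fitted with edgeR on 9 tumours; red points have an adjusted p under 0.05, black bars are list medians and the dotted line is the median of all tested genes. The AP-1 and immediate-early list has the highest median on the left, 1.18, with 16 of 19 genes higher, and the cascade list lies around 0.

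The members differed in how alike their patterns were over the 9 tumours. *Dusp6* and *Etv5* had a Pearson r of 0.912 over log2(CPM + 1) values and *Spry2* and *Phlda1* of 0.918, while *Dusp6* and *Fosl1* had -0.403. Among 10532 tested genes averaging 5 CPM or more, the gene outside the members most like *Dusp5* was *Dusp8* (r = 0.997), followed by *Actn4* (0.988). *Egr1* was most like *Fosb* (0.990) and *Rara* (0.989), and *Phlda1* most like *Junb* (0.977) and *Ppp1r12c* (0.976). The nearest genes were *Ptk2b* (0.989) and *Plk3* (0.988) for *Dusp4*, and *Lrrc8c* (0.990) and *Pdzrn3* (0.987) for *Spry2*. For the members that were not called from all 9 tumours they were *Ptpn3* (0.978) and *Ctsd* (0.968) for *Dusp6*, *Ptprk* (0.977) and *Gorasp1* (0.966) for *Etv5*, *Ddt* (0.966) and *Agpat3* (0.966) for *Etv4*, and *Lats2* (0.951) and *Adcy3* (0.950) for *Spry4*. These values describe 9 points that share 3 models and the tumour labelled HR1 replicate 1, and they were picked as the highest of many.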

How the data were processed

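RNA of sorted GFP+ cells from 9 tumours was made into stranded mRNA libraries and sequenced as single-end reads. The authors aligned them with STAR to mm10 and counted read starts over the exons of each gene with QuasR, and the deposited values are raw counts of 14108 genes, one table per tumour. Counts were joined by Entrez identifier, 14085 of which matched a symbol. Genes were filtered with filterByExpr (22 left out), libraries were TMM-scaled (factors 0.928 to 1.05), and one quasi-likelihood model over all 9 tumours was fitted with edgeR 4.0.16 in R 4.3.3, with Benjamini-Hochberg adjustment and a threshold of 0.05. Standard errors are the log2 fold change over the root of F. The study itself used limma-voom. Alternatives were other scalings and filters, DESeq2 1.42.0, limma 3.58.1 (voom), the compared tumours only, a replicate block and leaving out each tumour. Gene locations and exon lengths are from GENCODE M21 (GRCm38). The scripts were tested on simulated counts. The members and the gene lists were chosen with earlier results of these data known. All members are named. From each list those with the smallest p (3 per comparison) and *Fos*, *Jun*, *Junb* and *Atf3* are named, with exceptions stated. *Egfl7* and some other marker genes picked by this rule were counted in their lists only, and *Krt19* was named without its values. The genes most like *Fosl1* are not reported here.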

Additional observations from a re-analysis of the deposited data

Results flagged for a closer look

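With all 9 tumours sharing one estimate of the spread, *Dusp4* was the member called different between the LM models. The fit on the 6 LM tumours alone called 5 members, *Dusp4* among them. Against HR1 it was called higher in LM9 (log2 fold change 2.50) and not in LM1 (0.82, edgeR adjusted p = 0.0913), and the test of the difference between them gave a log2 fold change of 1.68 for LM9 versus LM1 with all 9 tumours (edgeR adjusted p = 0.0118). The 3 LM9 tumours (114 to 146 CPM) lay above the 3 LM1 tumours (36.7 to 50.3 CPM). The call was lost without LM1 replicate 1 (edgeR adjusted p = 0.0589) or LM1 replicate 3 (0.056), where the log2 value stayed at 1.60 and 1.61. Single values of a member were not tested as outliers within a model, since each model has 3 tumours.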

How the results depend on the processing

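The counts of members called changed mainly with the tumour labelled HR1 replicate 1. Leaving out each tumour in turn gave 5 to 9 of 10 for LM1 and LM9 versus HR1, 3 to 7 for LM1, 4 to 9 for LM9 and 0 to 5 for LM9 versus LM1. The upper ends are without that tumour, and the 0 is without LM1 replicate 1 or LM1 replicate 3. For LM9 versus LM1, DESeq2 called 2 members and the fit on only the 6 LM tumours called 5. *Spry2* fell short of the threshold when only the compared tumours were fitted (edgeR adjusted p = 0.0727 in LM1 and 0.0615 in LM9) and when HR1 replicate 3 was left out (0.069 and 0.0586). It also did so without HR1 replicate 2 in LM1 (0.0529) and without replicate 1 or 2 of the LM model compared (0.0593 to 0.085). *Fosl1* was called against HR1 by DESeq2 (adjusted p = 0.0176) and limma-voom (0.033), and *Etv4* with library size scaling (0.0461). Without HR1 replicate 2, *Dusp4* was called in LM1 (0.0286). Values near 0 changed sign. *Etv5* in LM1 and LM9 versus HR1 was 0.062 with library size scaling, 0.32 with limma-voom and 0.17 with the replicate block, and -0.40 to 0.75 with single tumours left out. With single tumours left out *Etv5* ranged from -0.79 to 0.36 in LM1 and -0.0071 to 1.14 in LM9, *Dusp6* from -0.81 to 0.26 for both models and -0.33 to 0.74 in LM9, *Spry4* from -0.0529 to 0.72 in LM1 and -0.0454 to 0.29 for LM9 versus LM1, and *Spry2* for LM9 versus LM1 from -0.16 to 0.17. *Spry2* was -0.0475 there with library size scaling. Causes were not tested. Of 670 recomputed member values, 612 kept direction and side of the threshold. The main fit did not pair the samples by replicate number. Correlations of deviations ran from -0.106 to 0.342 for same-numbered tumours and from -0.34 to 0.355 for differently numbered ones. These ranges overlap and do not settle whether tumours with the same replicate number share a factor. With the replicate block 5, 4, 5 and 1 members were called, as without it. Counts over all genes moved by more than 1.5 times for LM1 versus HR1 (3008 with only the compared tumours and 3121 to 7453 with tumours left out, against 4994), for LM9 versus HR1 (down to 3768, against 5958) and for LM9 versus LM1 (7709, and 1150 to 6413, against 3102). The split of higher calls did not stay fixed under library size scaling for LM9 versus LM1 (1334 of 3122, against 1615 of 3102). Each member had at least 32 reads in every tumour, and each mean rests on 3 tumours.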
